A study of Mus musculus with 31 samples.

Results

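The 10 genes described here encode subunits of the complexes that methylate lysine 4 of histone H3 (H3K4): Wdr5, Ash2l, Rbbp5, Dpy30, Men1, Paxip1, Pagr1a, Ncoa6, Kdm6a and Cxxc1. They were chosen by name from the known make-up of these complexes and not by a threshold on the measurements, though earlier results of these data were known, and are 10 of 21887 protein-coding genes of the RefSeq mouse annotation. For each of them, peaks of trimethylated H3K4 (H3K4me3) within 2 kb of either gene end were read from the deposited peak list of every library, with their width and the authors' fold enrichment over background. The regions that overlap these genes in the authors' 4 lists of differential H3K4me3 regions were read with their score per library.

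The study profiled H3K4me3 and monomethylated H3K4 (H3K4me1) by chromatin immunoprecipitation and sequencing (ChIP-seq) in the hippocampus of 30-day-old C57BL6 mice, in 31 libraries from 16 mice. The mice were wild type (WT) or heterozygous (HET) for Kmt2d+/bGeo, an allele of Kmt2d interrupted by a gene trap, and no group had both alleles affected. Each genotype was given TAK-418, an inhibitor of the H3K4 demethylase LSD1, by gavage at 1 mg/kg/day, or methylcellulose vehicle alone, for 2 weeks from 2 weeks of age. All 4 groups (WT vehicle, HET vehicle, WT TAK-418 and HET TAK-418) had 4 H3K4me3 libraries, from 4 mice each, so that no group was without gavage. The allele is carried in every cell of the animal, and the tissue was taken whole, with all of its cell types.

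H3K4 methyltransferases of the SET1 and MLL (KMT2) family work only weakly alone. Each of them sits on a shared core of WDR5, RBBP5, ASH2L and DPY30, which holds the catalytic domain in its active form, and further subunits decide where and how a given complex works. CXXC1 belongs to the SET1 complexes that trimethylate promoters, menin (the product of Men1) to the complexes of MLL1 and MLL2, and PAXIP1, PAGR1, NCOA6 and the H3K27 demethylase KDM6A (UTX) to those of MLL3 and MLL4, where MLL4 is the product of Kmt2d. Loss of a copy of KMT2D or of KDM6A causes Kabuki syndrome in people, which includes intellectual disability. H3K4me3 itself marks the promoters of active genes, so its level at these 10 genes shows the state of their own promoters and not the activity of the complexes.

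Promoter sequences are shown first because the peaks of these genes fell on some RefSeq promoters and not on others. The RefSeq table used (build GRCm38.p6, the same assembly as mm10) holds 300 bases per promoter, from 250 before to 50 after the transcription start, and lists 8 of the 10 genes. Below, each is printed 5′ to 3′ on the strand of the gene, and capitals mark matches on either strand of 6 motifs: CCGGAAG (ETS factors), GCGCATGC (the core of the NRF1 site), ATGGCGGC (YY1), GGGCGG (SP1), CCAAT (NF-Y) and TATAAA (the TATA box). The Wdr5 promoter (chr2:27514897-27515196, plus strand), those of Paxip1 (chr5:27791501-27791800, minus strand) and Pagr1a (chr7:127017303-127017602, minus strand) and a promoter inside Dpy30 (chr17:74316162-74316461, minus strand) lay under H3K4me3 peaks. The promoter at the outer end of Dpy30 (chr17:74323895-74324194, minus strand) and the Ncoa6 promoter of the table (chr2:155440734-155441033, minus strand) did not. A promoter counts as under a peak where any of its bases overlaps the peak.

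Wdr5: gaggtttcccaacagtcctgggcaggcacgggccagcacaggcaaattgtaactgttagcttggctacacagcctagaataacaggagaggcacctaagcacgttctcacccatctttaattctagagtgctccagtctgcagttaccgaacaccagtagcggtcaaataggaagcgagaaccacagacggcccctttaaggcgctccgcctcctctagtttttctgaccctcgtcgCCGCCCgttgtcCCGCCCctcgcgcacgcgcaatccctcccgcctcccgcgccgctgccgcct
Paxip1: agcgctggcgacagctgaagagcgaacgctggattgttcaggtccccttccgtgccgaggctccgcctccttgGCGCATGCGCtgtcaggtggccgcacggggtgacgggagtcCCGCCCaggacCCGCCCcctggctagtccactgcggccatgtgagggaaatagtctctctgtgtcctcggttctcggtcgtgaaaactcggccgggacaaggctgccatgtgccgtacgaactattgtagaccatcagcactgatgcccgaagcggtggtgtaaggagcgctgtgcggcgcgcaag
Pagr1a: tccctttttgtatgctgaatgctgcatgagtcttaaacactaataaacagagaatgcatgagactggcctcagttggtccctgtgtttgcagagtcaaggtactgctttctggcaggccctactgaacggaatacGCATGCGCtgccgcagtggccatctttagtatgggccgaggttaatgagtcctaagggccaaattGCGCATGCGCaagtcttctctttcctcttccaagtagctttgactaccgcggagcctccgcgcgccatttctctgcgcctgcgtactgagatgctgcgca
Dpy30, inner: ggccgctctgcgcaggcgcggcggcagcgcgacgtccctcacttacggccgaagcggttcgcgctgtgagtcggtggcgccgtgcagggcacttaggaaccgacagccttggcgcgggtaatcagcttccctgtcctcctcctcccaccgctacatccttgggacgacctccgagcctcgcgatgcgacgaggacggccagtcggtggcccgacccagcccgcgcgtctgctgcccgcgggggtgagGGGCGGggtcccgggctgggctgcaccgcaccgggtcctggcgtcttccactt
Dpy30, outer: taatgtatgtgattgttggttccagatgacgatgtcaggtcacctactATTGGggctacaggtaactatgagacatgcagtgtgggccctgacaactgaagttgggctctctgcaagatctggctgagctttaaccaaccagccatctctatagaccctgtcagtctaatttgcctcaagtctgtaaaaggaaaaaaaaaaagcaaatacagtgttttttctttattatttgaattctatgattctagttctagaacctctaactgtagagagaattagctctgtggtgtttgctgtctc
Ncoa6: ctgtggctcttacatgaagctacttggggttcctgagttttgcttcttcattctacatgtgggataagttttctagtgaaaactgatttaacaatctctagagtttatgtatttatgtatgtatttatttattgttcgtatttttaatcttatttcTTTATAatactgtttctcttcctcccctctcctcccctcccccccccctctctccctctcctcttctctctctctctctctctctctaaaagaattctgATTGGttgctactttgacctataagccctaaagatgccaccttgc

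The member promoters under peaks held more of the dinucleotide CG, which marks CpG islands when dense, than those without a peak. There were 22 CG in the Wdr5 promoter, 28 in that of Paxip1, 15 in that of Pagr1a and 39 in the inner Dpy30 promoter, and the unprinted promoters of Rbbp5 and Kdm6a had 16 and 21. The 3 promoters of Men1 had 11, 16 and 16. The outer Dpy30 promoter and the Ncoa6 promoter of the table, which lies inside the gene, had 1 each. The table holds no promoter at the outer 5′ end of Ncoa6, where its peak lay. Among 21263 promoters of protein-coding genes the median was 13. The 8727 of them that lay under a peak in each of the 4 libraries with long peak lists, described next, had a median of 25, and the 8905 under a peak in none had a median of 3. Those of Wdr5, Rbbp5, Pagr1a, Men1 and Kdm6a thus lay below the median of promoters under peaks. The Pagr1a promoter and the Men1 promoter with 11 CG lay under a peak in only 3 of these 4 libraries. In WT TAK-418 the Pagr1a promoter counted through an overlap of 5 bases. Promoters under a peak in 3 had a median of 18.

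The NRF1 core, which reads GCGCATGC and overlaps its own reverse complement in the run GCGCATGCGC, matched 2 times in the Paxip1 promoter and 3 times in that of Pagr1a, counting both strands. It occurred in 3.52% of all promoters of this length. GGGCGG matched 2 times each in the Wdr5 and Paxip1 promoters and 1 time in the inner Dpy30 promoter, against 46.2% of all promoters with a match. It also matched 1 time in the unprinted promoter of Kdm6a and in each of the 3 overlapping ones of Men1. CCAAT matched in the outer Dpy30 and the Ncoa6 promoter (38.2% of all promoters). It matched as well in each of the 3 Men1 promoters, where the HET vehicle peak reached the matches. The Men1 peaks of HET TAK-418, WT TAK-418 and WT vehicle began past them. These overlapped 35 to 62 bases of the nearest Men1 promoter. TATAAA matched in the Ncoa6 promoter (12.6%). No match of CCGGAAG (11.6%) or ATGGCGGC (3.02%) lay in these windows, which says only that those letters are not there. A match is a run of letters and no evidence of binding.

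In each group 1 H3K4me3 library had a long peak list and 3 had short ones. The 4 long lists held 13343 to 16750 peaks, with a peak at an end of 12057 to 13155 genes, and the index sequences in the labels put all 4 of these libraries in sets 1 and 2 of what are read here as 4 index sets. The 12 libraries of sets 3 and 4 held 302 to 2281 peaks, with a peak at an end of 49 to 1954 genes. Read depth is unknown from peak lists, so these libraries cannot be ranked by it. In the 4 long lists, 6 to 7 of 7 markers of excitatory hippocampal neurons had a peak at an end, as did 3 to 4 of 5 of inhibitory neurons, 3 to 4 of 4 of the oligodendrocyte lineage, 0 to 2 of 4 of astrocytes (Aqp4 in none) and 0 to 1 of 4 of microglia (Cx3cr1 and P2ry12 in none). Of 6 genes of liver, muscle and blood, 0 to 1 had one. Peaks on the Y chromosome (below 90 Mb) numbered 0 in the WT vehicle library, which also had a peak at Xist, and 29 in HET vehicle, 19 in WT TAK-418 and 10 in HET TAK-418. The WT vehicle library thus stood apart from the other 3 in its sex-linked peaks.

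All 10 genes carried H3K4me3 in the hippocampus in every library with a long list. At a gene end 8 of 10 had a peak in each of the 4, beside 55.1% of all protein-coding genes in the WT vehicle library, 56.2% in HET vehicle, 60.1% in WT TAK-418 and 58.8% in HET TAK-418. The 2 others, Ash2l and Dpy30, had a peak inside the gene in each of the 4. In sets 3 and 4, 1 of 120 pairs of gene and library had a peak at an end, at Wdr5 in WT vehicle replicate 2 (257 bp wide, fold enrichment 4.32), and 1 more lay inside a gene, at Dpy30 in WT vehicle replicate 4 (303 bp, 5.90). Wdr5 and Dpy30 are core subunits, and both of these libraries are WT vehicle, with 2281 and 768 peaks. They had a peak at an end of 8.93% and 2.92% of all genes. WT TAK-418 replicate 4, with 1728 peaks and 5.92% of all genes, had a peak at 0 members. Over the 12 libraries of sets 3 and 4 this share of all genes ranged from 0.224% to 8.93%. The 12 other genes of these complexes fixed for comparison, the methyltransferases Kmt2a, Kmt2b, Kmt2c, Kmt2d, Setd1a and Setd1b with Wdr82, Hcfc1, Hcfc2, Psip1, Bod1l and Tasp1, had a peak at an end in each of the 4 long lists and in 9 of 144 pairs in sets 3 and 4. No H3K4me1 peak lay at or in a member in 150 pairs of gene and library, in lists of only 88 to 456 peaks.

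**Figure D1:**
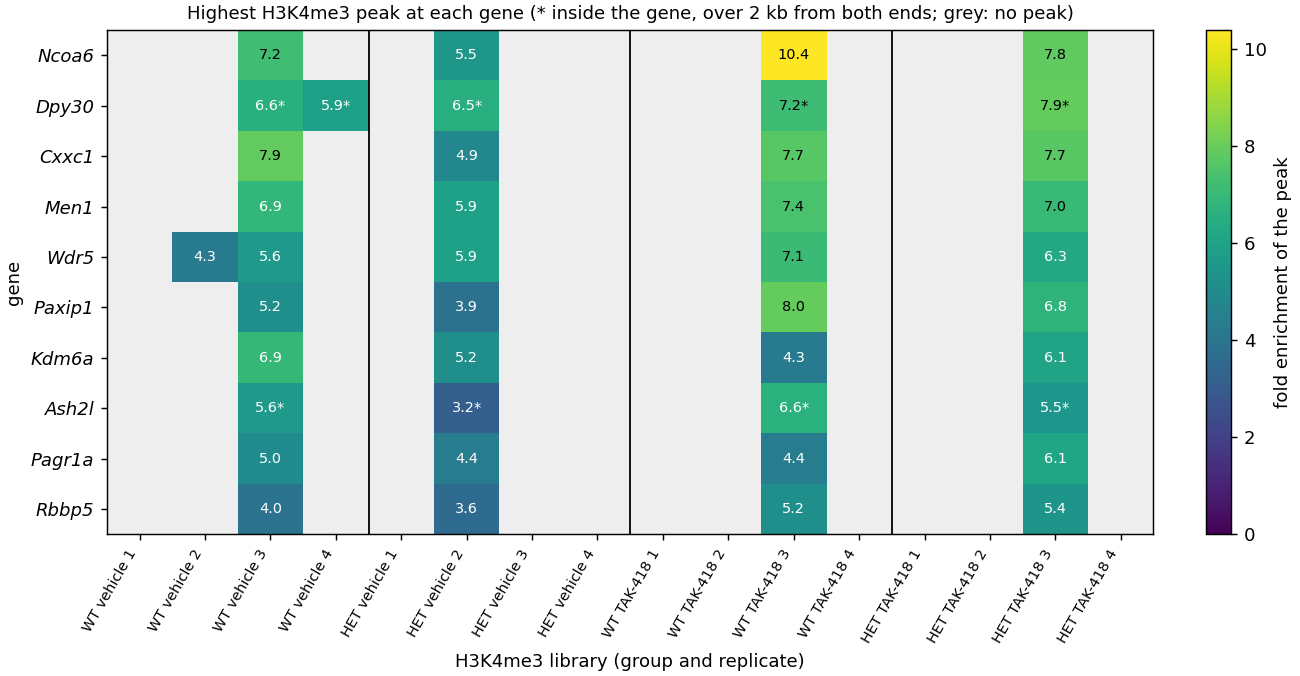
Fold enrichment of the highest H3K4me3 peak at each gene (rows, ordered by mean) in each of the 16 libraries (columns, by group and replicate), with an asterisk for peaks inside the gene and grey where no peak was listed. The filled cells form 1 column per group, the library of index sets 1 and 2, and 2 further cells stand at Wdr5 and Dpy30 in WT vehicle.

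Presence of a peak divided the libraries by index set and not by group. Of the 4 WT vehicle libraries, Wdr5 had a peak at an end in 2, and in 1 of 4 in each other group. Rbbp5, Men1, Paxip1, Pagr1a, Ncoa6, Kdm6a and Cxxc1 had one in 1 of 4 libraries of each group. Fisher's exact test (two-sided, 1 test per gene) gave p = 1 and adjusted p = 1 at each of these 8 genes in each of the 4 comparisons (Benjamini-Hochberg over 11414 to 11916 genes), and Ash2l and Dpy30 were not testable. Of all genes tested, 0% were called in HET vehicle against WT vehicle, 0% in HET TAK-418 against HET vehicle, 0% in WT TAK-418 against WT vehicle and 0% in HET TAK-418 against WT vehicle, with 0 genes at an unadjusted p under 0.05. The peak lists largely fixed this outcome, since each group had 1 long list beside short ones. A peak in only the long lists, as at 7909 genes, gives 1 of 4 libraries in each group and no difference to test. The counts of 0 therefore do not show whether presence differed between groups. In bulk tissue, fewer cells with a mark and less of the mark per cell cannot be told apart.

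Among the core subunits, the peak of Dpy30, whose product joins ASH2L through a small dimer, was the highest relative to other genes. Its fold enrichment was 6.60 in WT vehicle, 6.54 in HET vehicle, 7.15 in WT TAK-418 and 7.92 in HET TAK-418, at widths of 821 to 1056 bp. These values stood between percentiles 64.4 and 95.6 among genes with a peak at an end in the same library. The peak lay over the CG-rich inner promoter printed above and 7086 to 7209 bp from the nearer end of the RefSeq gene (chromosome 17, 74299474 to 74323944), whose outermost start had a peak in 0 libraries.

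Wdr5, for the WD40-repeat protein that binds the catalytic subunit, had a fold enrichment of 5.60 in WT vehicle, 5.91 in HET vehicle, 7.10 in WT TAK-418 and 6.26 in HET TAK-418. Its widths were 1300, 1443, 1399 and 1353 bp in the same order, the narrowest spread in width of the 10 genes, with the largest 1.11 times the smallest. The gene lies on chromosome 2 from 27515147 to 27536535, and each of these peaks spanned its start.

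Ash2l, whose product forms with RBBP5 the surface that activates the methyltransferase, had the lowest single value of the 10 genes. Its fold enrichment was 5.64 in WT vehicle, 3.15 in HET vehicle, 6.62 in WT TAK-418 and 5.46 in HET TAK-418. The HET vehicle library alone lay below 5, and its median over all genes with a peak at an end was also the lowest (4.36). The peak lay inside the RefSeq gene (chromosome 8, 25816000 to 25847694), 6027 to 6123 bp from its nearer end in all 4 libraries.

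Rbbp5 had the lowest mean of the 10 genes, with 3.96 in WT vehicle, 3.65 in HET vehicle, 5.18 in WT TAK-418 and 5.38 in HET TAK-418. Both vehicle libraries lay below both TAK-418 libraries, as did their medians over all genes with a peak at an end. These medians were 5.54 in WT vehicle, 4.36 in HET vehicle, 6.40 in WT TAK-418 and 6.20 in HET TAK-418. Its peak (889 to 1210 bp) spanned the gene's start at chromosome 1, 132477367, and its fold enrichment stood between percentiles 11.2 and 28.4, the only 1 of the 10 genes below the median in each library.

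**Figure D2:**
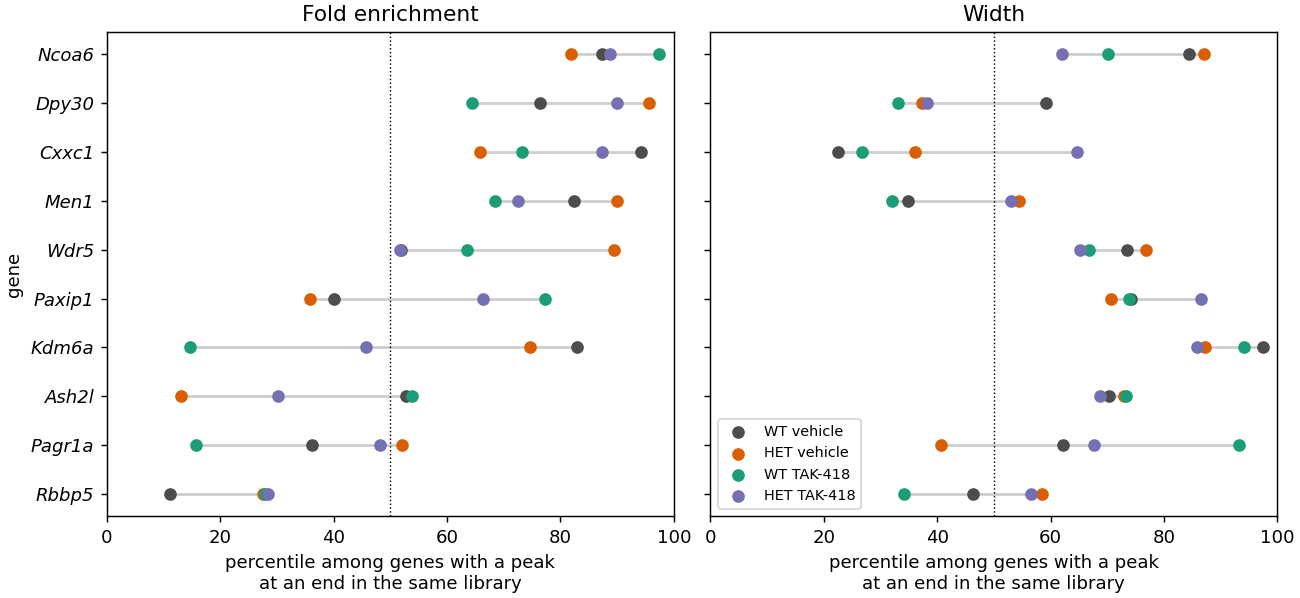
Percentile of the fold enrichment (left) and width (right) of each gene's highest peak among genes with a peak at an end in the same library, for the library of index sets 1 and 2 of each group (coloured points, joined by a grey line). Ncoa6 lies at percentile 81.9 or above for fold enrichment in each library and Kdm6a at 85.8 or above for width, while Rbbp5 lies below the dotted median line in each library for fold enrichment.

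Of the subunits that join only some complexes, Men1 carried a peak of high fold enrichment and middling width. Menin tethers MLL1 and MLL2 to chromatin. Its fold enrichment was 6.90 in WT vehicle, 5.95 in HET vehicle, 7.40 in WT TAK-418 and 7.02 in HET TAK-418, at widths of 752, 1042, 871 and 1155 bp. A second peak at the far end of the gene (chromosome 19, 6334979 to 6340894) was 3.62 to 6.89 fold enriched and lay over or within 28 bp of the end of Map4k2, a kinase gene, so its ownership is unclear.

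Cxxc1, whose product binds unmethylated CpG through a zinc finger and brings the SET1 complexes to CpG islands, lies on chromosome 18 from 74216212 to 74221493. Its peak, over the lower-coordinate end of the gene, had a fold enrichment of 7.89 in WT vehicle, 4.86 in HET vehicle, 7.68 in WT TAK-418 and 7.74 in HET TAK-418. Here 3 values were close to each other. The HET vehicle value lay below them, in the library with the lowest median over all genes (4.36). Its peak was 610, 807, 802 and 1344 bp wide in the same order, widest in HET TAK-418.

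Ncoa6, for a nuclear receptor coactivator of the MLL3 and MLL4 complexes, had the highest mean fold enrichment of the 10 genes. The values were 7.21 in WT vehicle, 5.49 in HET vehicle, 10.4 in WT TAK-418 and 7.84 in HET TAK-418, between percentiles 81.9 and 97.5. The peak lay over chromosome 2, 155473911, the outer 5′ end of this minus-strand gene. The promoter printed above belongs to a start inside the gene, far from that peak. That promoter, with 1 CG, had a peak in 0 libraries.

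Paxip1 and Pagr1a encode partners: PAXIP1 (PTIP) is a BRCT-domain protein and PAGR1 (PA1) binds it. Paxip1 (chromosome 5, 27740080 to 27791672) had a fold enrichment of 5.18 in WT vehicle, 3.92 in HET vehicle, 7.96 in WT TAK-418 and 6.78 in HET TAK-418, with widths of 1312, 1305, 1563 and 1954 bp. Both values were higher in both TAK-418 libraries than in both vehicle libraries, as were both medians over all genes with a peak at an end. For width these medians were 936 bp in WT vehicle, 981 in HET vehicle, 1117 in WT TAK-418 and 1109 in HET TAK-418. Pagr1a (chromosome 7, 127015051 to 127017352) had 5.05 in WT vehicle, 4.41 in HET vehicle and 6.14 in HET TAK-418 at or near its own start. In HET vehicle the peak lay 179 bp inside the gene from the start and missed the promoter printed above. In WT TAK-418 the peak near the start, 45 bp inside the gene, was 3.85 fold enriched. Another peak of 4.39, 2516 bp wide and 1681 bp beyond the start, ranked above it and overlapped Prrt2 and Maz. Prrt2, a synaptic gene linked to epilepsy, has an end 108 to 369 bp from the Pagr1a peak in the 4 libraries, and Mvp, for the major vault protein, has one 1440 to 1717 bp from it on the other side.

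Kdm6a (chromosome X, 18160862 to 18279936) had the highest mean peak width of the 10 genes. Its widths were 2769 bp in WT vehicle, 1801 in HET vehicle, 2654 in WT TAK-418 and 1926 in HET TAK-418, between percentiles 85.8 and 97.5. Both WT libraries were wider than both HET libraries, and in HET TAK-418 the Paxip1 peak was wider than that of Kdm6a. Its fold enrichment was 6.92, 5.18, 4.32 and 6.05 in the same order and was highest in the WT vehicle library, the 1 without Y chromosome peaks. Kdm6a escapes X inactivation in female mice. The WT TAK-418 library, with 19 Y chromosome peaks, had nearly the same width as WT vehicle and the lowest of these fold enrichments. Whether sex contributes to these values was not tested. With 1 library per group, sex, genotype and treatment cannot be told apart.

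**Figure D3:**
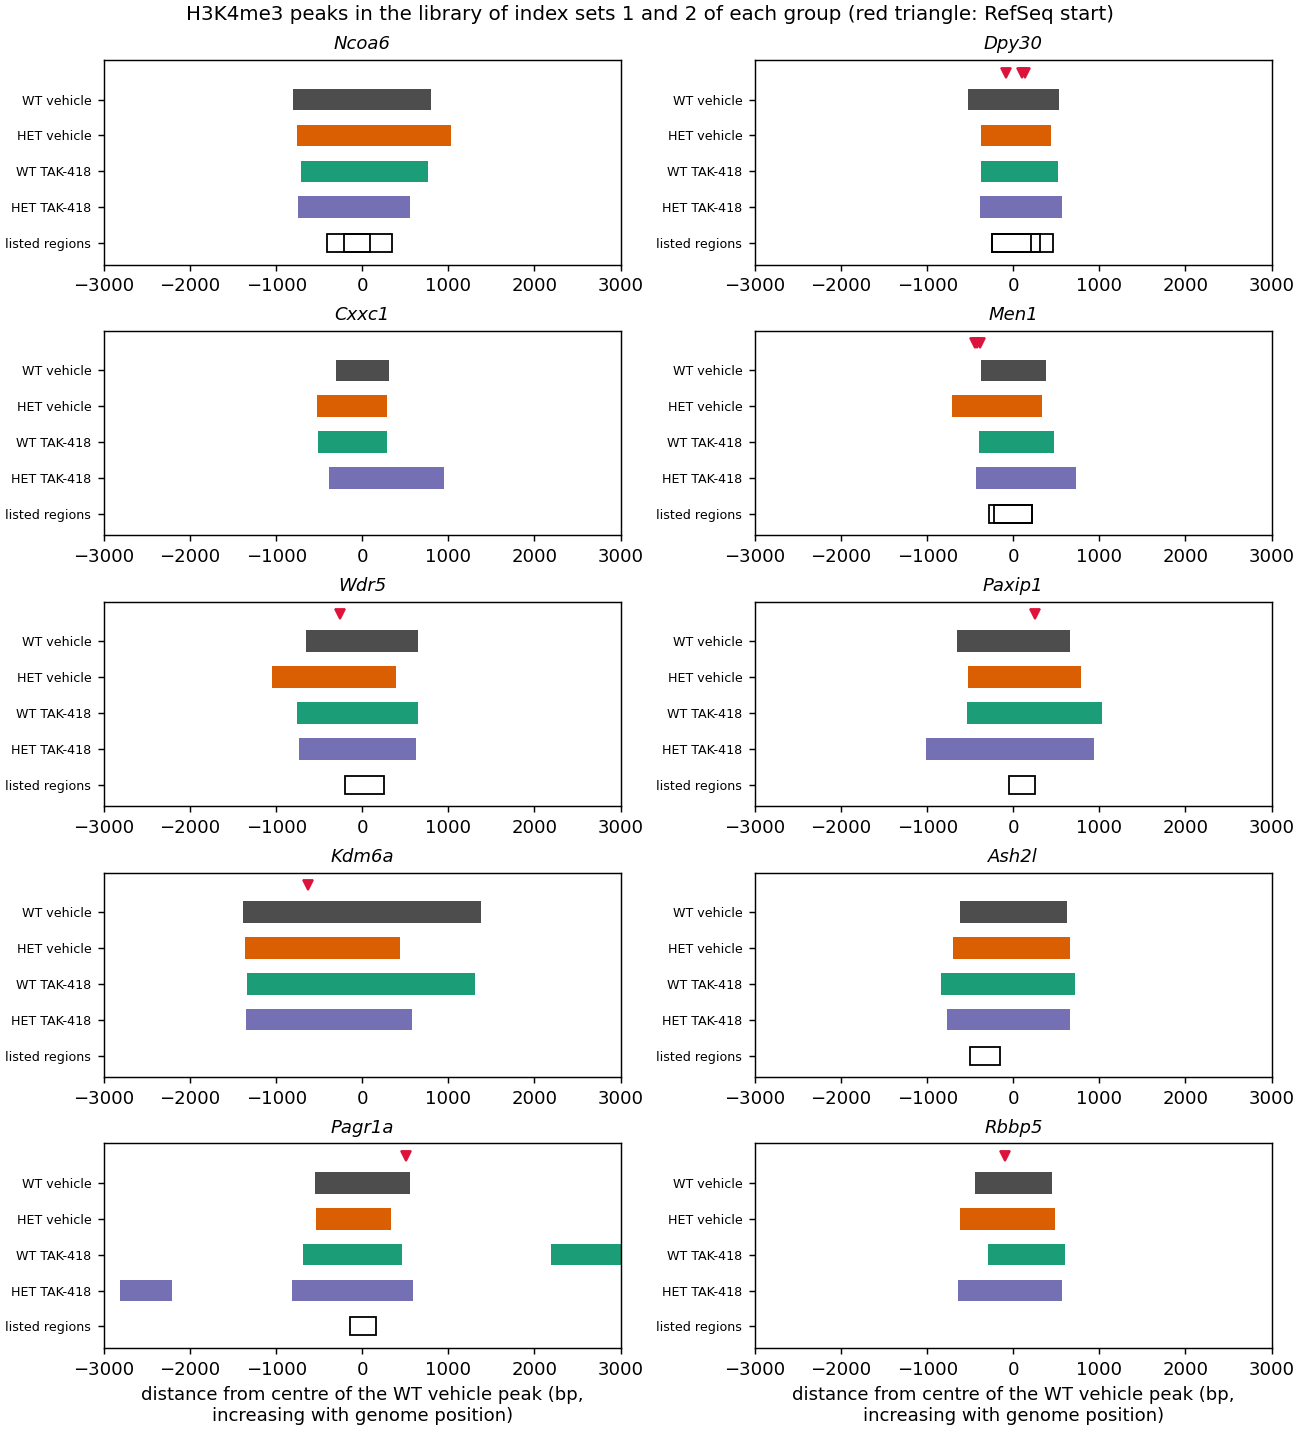
Extent of the H3K4me3 peaks of each gene in the library of index sets 1 and 2 of each group (coloured bars), as the distance in bp from the centre of the WT vehicle peak, with red triangles at RefSeq starts and open boxes for the regions in the authors' lists. Bars share their position across the 4 libraries at each gene, the main bars of Kdm6a are the longest in both WT libraries and that of Paxip1 in HET TAK-418, and an additional bar of Pagr1a in WT TAK-418 runs past the right edge.

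Ordered by mean fold enrichment over these 4 libraries, 1 per group, the genes were Ncoa6 (7.73 ± 2.03, SD, n = 4), Dpy30 (7.05 ± 0.639), Cxxc1 (7.04 ± 1.46), Men1 (6.82 ± 0.616), Wdr5 (6.22 ± 0.648), Paxip1 (5.96 ± 1.77), Kdm6a (5.62 ± 1.12), Ash2l (5.22 ± 1.47), Pagr1a (4.997 ± 0.818) and Rbbp5 (4.54 ± 0.868). These SDs include differences between groups as well as between libraries. Each of the 9 gaps between neighbours, at most 0.677, was smaller than the larger of the SDs of that pair. Fold enrichment is the authors' ratio over background for a peak, and the highest peak in the gene span was taken. A longer gene has more room for a peak, and a part of gene length was not tested. Wdr5, Dpy30, Men1, Ncoa6 and Cxxc1 stood above the median gene in each of the 4 libraries. For width, Wdr5, Ash2l, Paxip1, Ncoa6 and Kdm6a stood above the median in each.

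The protein-coding genes whose pattern was most like the median of the 10 were Hdac3, Cdc42se1, Frmd4b, Arhgap33 and Lmf1, by Euclidean distance of log2(fold enrichment + 1) over 16 libraries, with 0 where no peak was listed. Hdac3, for a histone deacetylase, was nearest, at a distance of 0.0272 and with a fold enrichment of 5.38 in WT vehicle, 4.73 in HET vehicle, 6.02 in WT TAK-418 and 6.19 in HET TAK-418. The median of the members was 5.39, 4.63, 6.08 and 6.20 in the same order. The members themselves lay at distances of 0.405 to 5.43, further than each of these 5, and 7909 genes shared the pattern of a peak in exactly the 4 long lists.

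Between groups, the libraries of sets 1 and 2 gave 1 value per group, so ratios of their fold enrichments have no replicate check and no p. The HET vehicle library was lowest of the 4 at 7 of 10 members, and at 79.4% of the 12100 genes with a peak in each of the 4. Against WT vehicle its fold enrichment was lower at 7 of the 8 members with a peak at an end, with a median ratio of 0.812 beside 0.795 over 11401 genes. A ratio past 1.5 in either direction was found at 1 member, Cxxc1 (0.616), and at 23.2% of all genes. In the gene span Ash2l also passed it (0.559).

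In HET TAK-418 against HET vehicle, fold enrichment was higher at 8 of 8 members, with a median ratio of 1.41 beside 1.42 over all genes. Paxip1 (1.73) and Cxxc1 (1.59) passed 1.5, as did 39.7% of all genes. In WT TAK-418 against WT vehicle the median ratio was 1.17 beside 1.18. There Paxip1 (1.54) passed upward and Kdm6a (0.623) downward, with 15.3% of all genes past it. Treated heterozygotes against WT vehicle gave a median ratio of 1.10 beside 1.13, and 0 of 8 members passed, against 10.1% of all genes. These comparisons share libraries: WT vehicle enters 3 of them and HET vehicle 2.

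Widths moved less together. In HET vehicle against WT vehicle 1 of 8 members passed a ratio of 1.5, Kdm6a at 0.650, and 28% of all genes did. In HET TAK-418 against HET vehicle Pagr1a (1.62) and Cxxc1 (1.67) passed, with 30.3% of all genes. Pagr1a passed in WT TAK-418 against WT vehicle (2.28, through the wide peak over Prrt2), with 31.1% of all genes, and Men1 (1.54) and Cxxc1 (2.20) in HET TAK-418 against WT vehicle, with 29.3%. Over both measures and all 4 comparisons, 0 to 2 of 8 members passed 1.5.

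**Figure D4:**
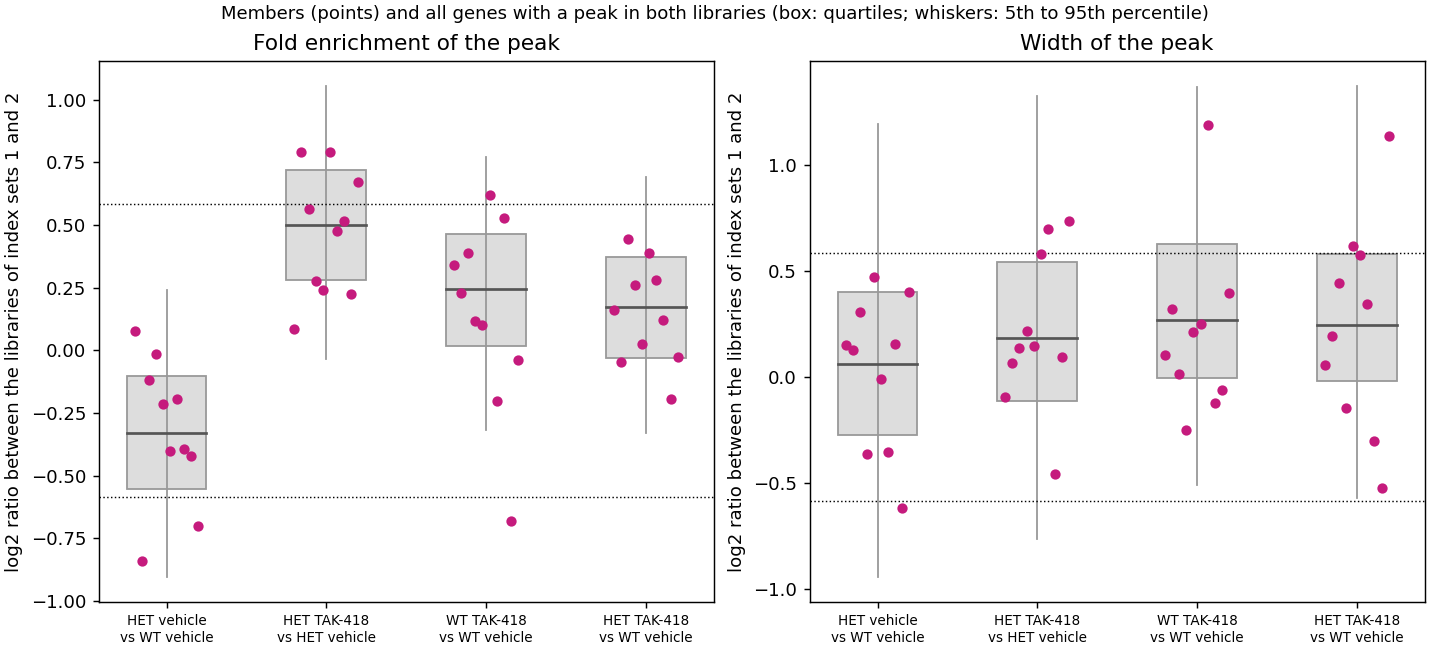
Log2 ratio of fold enrichment (left) and width (right) between the libraries of index sets 1 and 2 for the 10 members (points, gene span) and for all genes with a peak in both libraries (grey boxes), with dotted lines at a ratio of 1.5. The points spread across the grey boxes in each comparison, with 9 of 10 below 0 for fold enrichment in HET vehicle against WT vehicle and 10 of 10 above 0 in HET TAK-418 against HET vehicle.

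The authors' lists of differential regions give a score per library for all 4 libraries of both groups, without the libraries' names, and hold regions chosen by the authors' p. Of the 10 members, 7 had a region in at least 1 list, for 11 regions in all, of which 9 were listed as lower and 2 as higher in the group named first in each comparison below. Rbbp5, Kdm6a and Cxxc1 had none. The share of all genes with a region in at least 1 list was not computed, so 7 of 10 cannot be read as an excess. The shares given below for each list cover all protein-coding genes, with or without an H3K4me3 peak. The scores of the groups overlapped at each of the 11 regions. None passed limma on log2(score + 1) at an adjusted p of 0.05, and 0 of 11 had an unadjusted limma p under 0.05, with adjusted p from 0.575 to 0.779 (n = 4 per group). Two-sided exact permutation p ranged from 0.114 to 0.657, where 4 against 4 can give 0.0286 at the smallest. In 20 of 22 sets of scores the highest fell at the position in the list whose median over all regions was highest for that group. No score is tied to a library here.

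In HET vehicle against WT vehicle, 2 of 10 members had a region, both lower, beside 8.21% of all protein-coding genes, in a list whose 2015 regions were 86.0% lower. At Pagr1a (chromosome 7, 127016701 to 127017000) the scores were 25, 26, 67 and 104 in WT vehicle and 3, 39, 14 and 22 in HET vehicle. Only 1 of the HET scores reached into the WT range. The means were 55.5 ± 37.8 and 19.5 ± 15.2 (SD, n = 4), a ratio of 0.351 and a log2 difference of −1.63 (SE 0.776, limma adjusted p = 0.575, exact permutation p = 0.114).

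At Dpy30 (chromosome 17, 74316051 to 74316750, over the inner promoter) the scores were 67, 111, 199 and 140 in WT vehicle and 70, 209, 46 and 34 in HET vehicle. The highest score of all 8 was a HET one, while 2 other HET scores lay below each WT score. The log2 difference was −0.78 (SE 0.685, limma adjusted p = 0.582, exact permutation p = 0.314, n = 4). Over this list limma called 0% of regions, with 82 at an unadjusted p under 0.05, and the groups did not overlap at 2.03%. Centring each library's log scores on its median over the list moved all differences by 0.66, to −0.97 at Pagr1a and −0.12 at Dpy30.

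In HET TAK-418 against HET vehicle, 1 of 10 members had a region, beside 5.08% of all genes. This was Wdr5 (chromosome 2, 27515201 to 27515650), lower in a list with 31.5% lower regions. The scores were 100, 184, 119 and 57 in HET vehicle and 47, 31, 172 and 66 in HET TAK-418. Of the treated libraries 1 scored near the top of the vehicle range and 2 below it. The log2 difference was −0.72 (SE 0.832, limma adjusted p = 0.691, exact permutation p = 0.286, n = 4), and −0.91 after centring. At the same gene the peak of the TAK-418 library of sets 1 and 2 was 1.06 times that of the vehicle library. Limma called 0% of this list, with 17 regions at an unadjusted p under 0.05, and 0.35% did not overlap.

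In WT TAK-418 against WT vehicle 4 of 10 members had a region, 2 higher and 2 lower, beside 11.4% of all genes, in a list with 36.4% lower regions. Ncoa6 (chromosome 2, 155473401 to 155473950) was listed as higher, with 50, 69, 214 and 126 in WT vehicle and 51, 99, 362 and 146 in WT TAK-418. The 362 stood above the rest, and without it the log2 difference of 0.38 became −0.12. Paxip1 (chromosome 5, 27791251 to 27791550) was listed as higher too, with 49, 59, 86 and 31 against 44, 44, 150 and 98, a log2 difference of 0.46 (SE 0.730, limma adjusted p = 0.779, exact permutation p = 0.4, n = 4). Of its treated scores 2 lay above the vehicle range and 2 within it.

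Dpy30 was listed as lower in that comparison at the inner promoter (74316051 to 74316600), with 67, 105, 224 and 150 in WT vehicle and 61, 34, 186 and 48 in WT TAK-418. There 3 of 4 treated scores lay below each vehicle score, and 1 within their range. The log2 difference was −0.91 (SE 0.743, limma adjusted p = 0.779, exact permutation p = 0.2, n = 4). Men1 (chromosome 19, 6335151 to 6335650) was lower by less, with 37, 87, 208 and 134 against 47, 57, 177 and 53, a log2 difference of −0.45 (exact permutation p = 0.543, n = 4). Limma called 0% of the list, with 66 regions at an unadjusted p under 0.05, and 0.54% did not overlap.

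In HET TAK-418 against WT vehicle 4 of 10 members had a region, all lower, beside 11% of all genes, in a list with 72.4% lower regions. At Dpy30 (74316051 to 74316500) the scores were 55, 84, 183 and 134 in WT vehicle and 38, 17, 193 and 7 in HET TAK-418. There 3 of the 4 treated scores lay below each vehicle score, and the other was the highest of all 8. The log2 difference was −1.69 (SE 0.873, limma adjusted p = 0.613, exact permutation p = 0.2, n = 4), the largest of the 11 regions. Men1 (6335201 to 6335650) had 34, 81, 186 and 117 against 24, 9, 185 and 68, with a log2 difference of −1.08 (exact permutation p = 0.314, n = 4).

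Ash2l (chromosome 8, 25840451 to 25840800), under its peak inside the gene, had 9, 91, 123 and 107 in WT vehicle and 16, 18, 120 and 30 in HET TAK-418. The lowest score was a vehicle one, and the difference of −0.84 in log2 did not exceed the spread (exact permutation p = 0.457, n = 4). Ncoa6 (155473201 to 155473700), listed as higher in treated wild types, was listed as lower here, with 46, 106, 221 and 148 against 56, 19, 229 and 73, a log2 difference of −0.77 (exact permutation p = 0.429, n = 4). Centring moved the differences of this list by 0.67, to −1.02 at Dpy30, −0.40 at Men1, −0.16 at Ash2l and −0.10 at Ncoa6. Limma called 0.294% of the list (8 of 2722 regions, none at a member, and 0 after centring or with a pseudocount of 8). Before adjustment 174 regions had a limma p under 0.05, and 0.404% did not overlap.

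**Figure D5:**
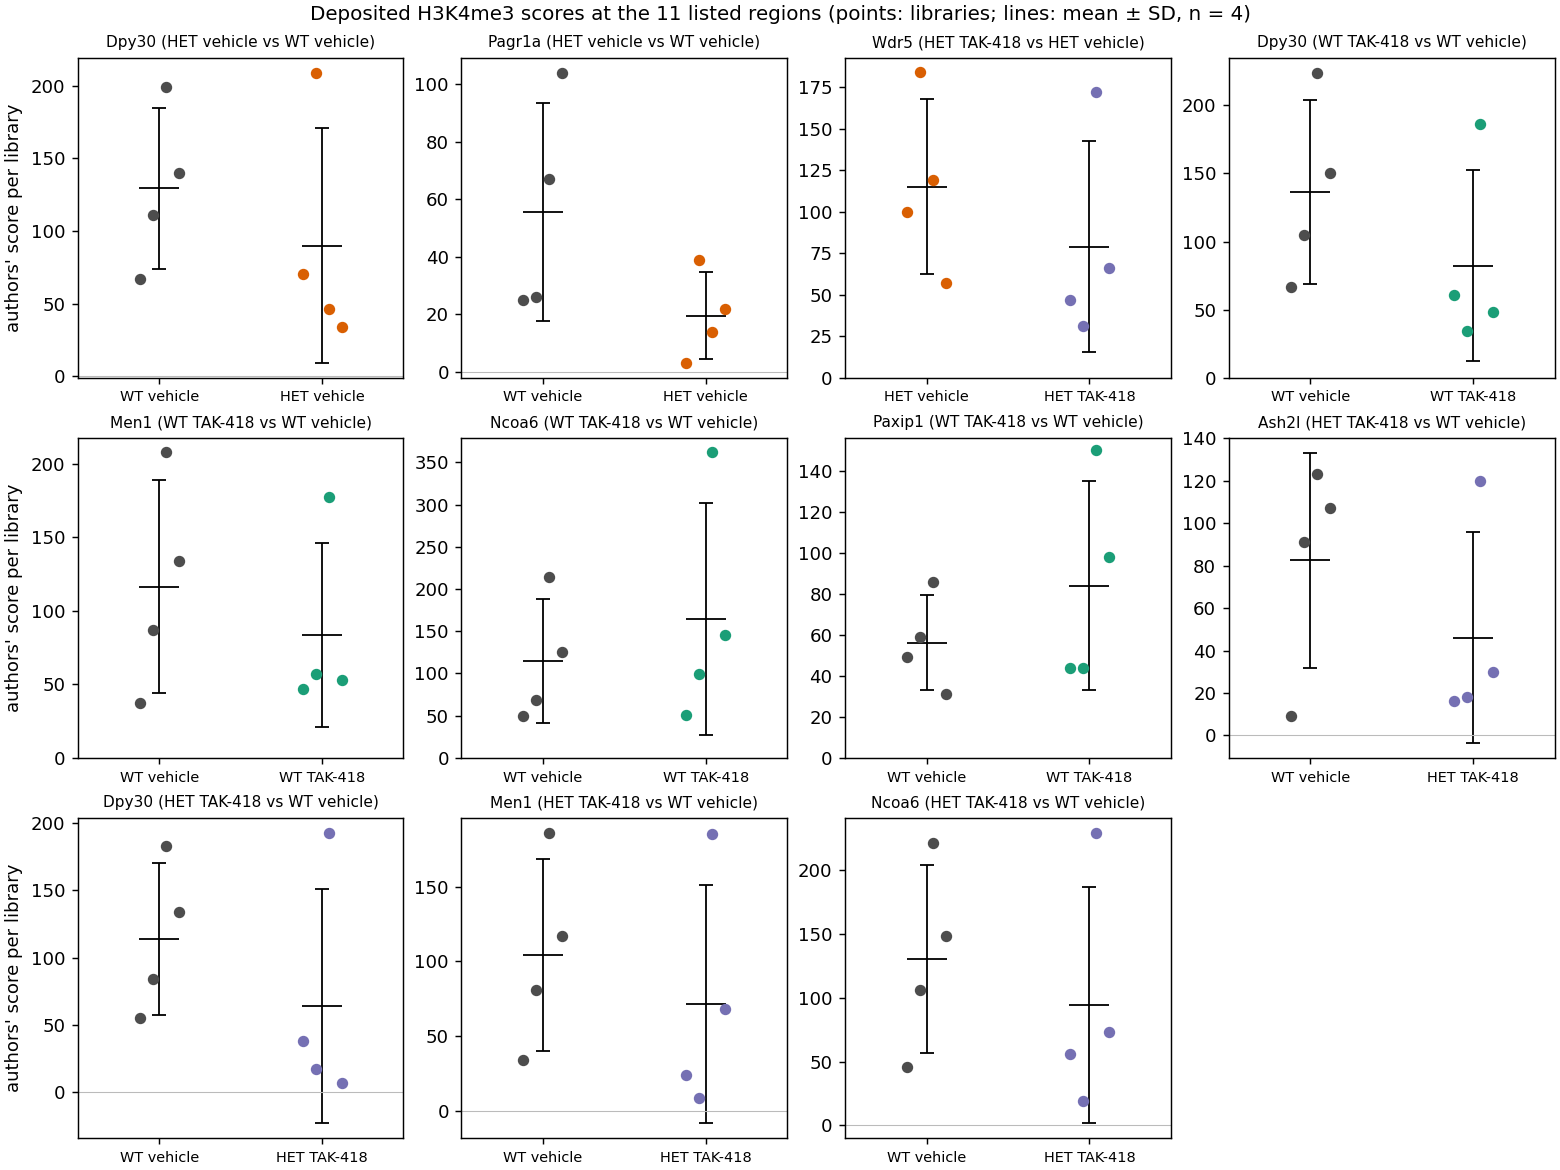
Deposited H3K4me3 scores per library (points, in the authors' units) at the 11 regions of member genes, 1 panel per region and comparison, with the mean and SD of 4 libraries per group. The point ranges of both groups overlap in each panel, and 1 treated point stands far above the other 3 at Dpy30, Men1 and Ash2l in the comparisons with WT vehicle.

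Dpy30 was the member listed most often, in each of the 3 comparisons with WT vehicle and lower in each, at nearly the same bases. Those 3 lists use the same WT vehicle libraries, so they are not independent. Of the 12 other genes of these complexes, 7 had a region in at least 1 list, again without a share of all genes to set beside it. They had 17 regions, 10 lower and 7 higher, with 2, 2, 5 and 5 genes in the lists in the order above. The scores overlapped between groups at each of the 17, and 0 had an unadjusted limma p under 0.05. The named ones with the largest log2 differences were Setd1b, for a SET1 methyltransferase, at −1.49 in WT TAK-418 (71.5 ± 45.8 against 46.3 ± 49.7, vehicle first, n = 4) and −1.31 in HET TAK-418 (108 ± 37.6 against 72.8 ± 67.5), and Bod1l, for a SET1B-associated protein, at −1.24 in HET TAK-418 (133 ± 87.8 against 78.3 ± 105).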

How the data were processed

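H3K4me3 ChIP-seq libraries (16, 4 per group) and H3K4me1 libraries (15, for presence only) were taken as deposited. Per the submitters' processing notes, mm10, MACS2, MACS and bedtools were used, but no version, order or role is stated. The sources used here do not give the aligner, control library, peak threshold or the tool and normalization behind the differential lists. Each peak has the authors' fold enrichment, a ratio, and the authors' −log10 q. The authors deposited in each differential region a −log10 p and a score per library, taken as normalized and compared only within a list. No file gives read counts, so depth and the precision of single peaks are unknown. Peak presence was tested by Fisher's exact test per gene and scores by limma 3.58.1 (R 4.3.3) on log2(score + 1) over all regions of a list, both with Benjamini-Hochberg adjustment, beside two-sided exact permutation tests. Both steps were run on simulated data as a check of the code. The simulation did not copy the spread of the real scores or the split between long and short peak lists. Other steps used scipy 1.17.1, pandas 2.3.3, matplotlib 3.10.9 and numpy 2.4.6 under Python 3.11.15. A region counted for a gene when it overlapped the gene extended by 2 kb. In the HET TAK-418 against WT vehicle list limma gave each region the same SE, 0.873. Named genes were all members, 12 other genes of the complexes, the 5 genes nearest in profile and genes within 2 kb of a member's peak. Members and lists were chosen with earlier results of these data known. The labels do not say whether a score belongs to a named library, nor the sex of the mice. Replicate numbers follow accession order and pair no samples. Alternatives were other windows, pseudocounts, peak and score limits, centring and leaving out each library. Of the marker genes, 1 is not reported here.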

Additional observations from a re-analysis of the deposited data

Results flagged for a closer look

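In 11 of 60 groups of 4 libraries 1 value stood far from the other 3, by Dixon's test at 95%. Chance alone gives about 1 in 20 for normally distributed values. The test was run on raw scores and on counts, so that rate is no standard for the 11. The counts of members among them follow the split of long and short peak lists. These groups share libraries and are not independent. The number of members with a peak at an end was 8 in 1 library of each of the 4 groups, the one with an index of sets 1 and 2, and 0 in the other 3 libraries, except for 0 to 1 in WT vehicle. Scores that stood apart at members were 177 at Men1 in WT TAK-418 (the others 47 to 57), and 193 at Dpy30 (7 to 38) and 120 at Ash2l (16 to 30) in HET TAK-418. At other genes of the complexes they were 488 (104 to 129) and 486 (108 to 117) at Kmt2c in WT vehicle, in the lists with WT TAK-418 and HET TAK-418, and 313 at Kmt2d (59 to 93) and 235 at Bod1l (16 to 32) in HET TAK-418. Each of these scores stood at position 3 of its group. The library with a long peak list was replicate 3 in WT vehicle, WT TAK-418 and HET TAK-418, and replicate 2 in HET vehicle. The lists do not state whether positions follow replicate order or which library gave each score. A part of the index sets in these scores was not tested.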

How the results depend on the processing

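Of 120 alternatives at the 11 member regions, 119 kept the direction and stayed short of an adjusted limma p of 0.05 (smallest 0.0599), and 1 reversed, at Ncoa6 in WT TAK-418, where leaving out 1 score at a time gave −0.12 to 0.81. A limit of 50 on the mean score leaves out the Pagr1a region, so it has no value there. Fisher's exact test called 0 genes under each alternative, which says nothing about stability, since 4 libraries against 4 give at best an exact p of 0.0286 before adjustment. With only peaks of −log10 q of at least 5, 21 pairs of member and library had a peak at an end in place of 33. Counting regions at gene ends only, 1 member in place of 2 had one in HET vehicle against WT vehicle and 2 in place of 4 in HET TAK-418 against WT vehicle. At a −log10 p of at least 2 the counts were 0 in place of 1 in HET TAK-418 against HET vehicle, and 2 in place of 4 in both lists of TAK-418 groups against WT vehicle. In HET TAK-418 against WT vehicle the 8 regions called by limma became 0 with a pseudocount of 8, 0 with centring and 0 to 11 without 1 score position. The counts of 0 became 0 to 1 in HET TAK-418 against HET vehicle and 0 to 3 in WT TAK-418 against WT vehicle without 1 position. Members past a ratio of 1.5 in HET vehicle against WT vehicle were 2 in place of 1 for fold enrichment in the gene span, an alternative chosen after seeing the data, and 2 in place of 1 for summed widths. In HET TAK-418 against WT vehicle, 1 in place of 0 passed for summed fold enrichment. Among other genes of the complexes, leaving out 1 score gave −0.70 to 0.81 at Hcfc2 and −0.24 to 0.82 at Kmt2a in HET TAK-418 against HET vehicle, −0.10 to 0.61 at Kmt2d, −0.94 to 0.19 at Kmt2c and −0.13 to 0.73 at Kmt2a in WT TAK-418, and −0.11 to 0.86 at Hcfc2 and −0.84 to 0.17 at Kmt2c in HET TAK-418 against WT vehicle. That Kmt2c difference became 0.32 with centring, and the first Hcfc2 difference 0.063 with a pseudocount of 8. The cause of these changes was not tested. Score positions carry no library name. No paired analysis was possible because the labels give no shared replicate numbers. Depth is unknown, 12 of 16 peak lists are short, and 4 libraries per group limit the precision.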
